A study of Rattus norvegicus with 8 samples.

Results

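The genes described here encode the subunits of the mitochondrial respiratory chain and ATP synthase, measured by RNA sequencing in rat periodontal ligament (PDL), the connective tissue between tooth root and bone. They were chosen by symbol in the count table: names beginning with Nduf (other than Ndufa4l2 and the Ndufaf assembly factors), Sdha to Sdhd, Uqcr, Cyc1, Cox4 to Cox8 and Atp5. Of 81 such symbols among 17337 genes, 75 had 10 or more counts in at least 4 of the 8 libraries, and all 75 entered the test over 10472 genes. They comprised 34 genes of complex I, 4 of complex II, 9 of complex III, 12 of complex IV and 16 of complex V. Ndufa4 was counted in complex I by its symbol, although its protein is now placed in complex IV.

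The series compared the ligament before and after opposing teeth come into contact. Cervical PDL was taken by laser micro-dissection from 4 untreated rats at postnatal day 18 (P18) and from 4 at postnatal day 28 (P28); no genetic change or agent is named for either age. The libraries were prepared from total RNA using the SMARTer Ultra Low kit. Each is a bulk capture, so that fewer cells of a type and less RNA per cell cannot be told apart in any value below.

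In oxidative phosphorylation, complex I takes electrons from NADH and complex II takes them from succinate, complex III passes them from ubiquinol to cytochrome c, and complex IV hands them to oxygen. Complexes I, III and IV pump protons across the inner mitochondrial membrane, and complex V, the ATP synthase, uses their return flow to make ATP. Most subunits are encoded in the nucleus and a few in mitochondrial DNA; the 13 mitochondrially encoded subunits were not analysed here. Ligament fibroblasts make and remodel collagen continuously, and the osteoclasts that resorb bone at the socket wall are known to be rich in mitochondria.

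Total counts ran from 5252693 (P28 replicate 4) to 26645656 (P18 replicate 2). The members together took 1.57% to 2.00% of the counts of a library, and 70 of the 75 had at least 100 counts in every library. Of 6 ligament markers, Col1a1, Col3a1, Postn, Tnmd and Scx were present in every library and Aspn was at or near 0 in all. Summed, they reached 82490 to 126800 CPM in P18 libraries and 128300 to 176800 CPM in P28 libraries (CPM, counts per 1000000 of the TMM-scaled library). That sum is mostly Col1a1, Col3a1 and Postn; Tnmd, the only ligament marker called, fell from 479 to 734 CPM in the P18 libraries to 51.1 to 133 CPM in the P28 libraries (log2 change -2.43, adjusted p = 0.00608 in edgeR). The sum of 5 osteoblast and cementoblast markers also lay apart, at 1916 to 3406 and 3777 to 8096 CPM. It is mostly Ibsp and Bglap, and Runx2 and Sp7 overlapped between the ages, with log2 changes of -0.05 and -0.31. Of the 5, only Bglap was called (log2 change 2.21, adjusted p = 0.0264 in edgeR). Enamel organ markers summed to 15.1 to 4790 CPM at P18, highest in replicate 1, and to 5.62 to 638 CPM at P28. Of these, only Ambn and Amtn were called, both lower (log2 change -8.51 and -10.0, adjusted p = 0.0204 and 0.0188 in edgeR). Epithelial markers reached 3625 CPM in P28 replicate 2, against 20.4 to 525 CPM at P18. Erythroid and neutrophil sums overlapped between the ages. P28 replicate 4, the shallowest library, correlated across genes with the other P28 libraries at 0.75 to 0.766, against 0.813 to 0.827 among those. Whether these differences play a part in the values of the members was not tested.

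Most members differed little between the ages. Of the 75, 1 was called higher at P28 (Cox7b) and 1 lower (Sdha) by the quasi-likelihood test of edgeR at an adjusted p under 0.05, where the background over all genes tested was 0.936% called, 0.516% higher and 0.42% lower. The 2 calls are 2.67% of the members. The members' median log2 fold change (P28 over P18) was 0.19, with 48 above 0 and 27 below, against a median of 0.007 and 50.3% above 0 over all genes tested. For 53 members the log2 fold change was within 0.5 of 0.

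The members that lay apart between the ages were mostly higher at P28. The 4 P28 libraries were all above the 4 P18 libraries for 13 members (17.3%, against 4.91% of all genes tested) and all below for 3 (4%, against 5.54%). An unadjusted p under 0.05 was found for 16 members with a higher level at P28 (21.3%, background 7.45%) and for 4 with a lower one (5.33%, background 7.1%). With the Wald test of DESeq2 at an adjusted p under 0.05, 7 members were called higher and 1 lower, 9.33% and 1.33% of the members against 2.79% and 2.52% of all genes. The calls added were Ndufs5, Uqcr11, Uqcrq, Atp5e, Atp5j2 and Atp5l.

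Members varied less between animals than most genes. Their median coefficient of variation was 12.2% at P18 and 20.3% at P28, against 35.7% and 45.3% over all genes tested. Among genes with a mean of at least 100 CPM, these medians were 11.5% and 17.9% for 61 members and 16.3% and 24.3% for 1917 genes.

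**Figure D1:**
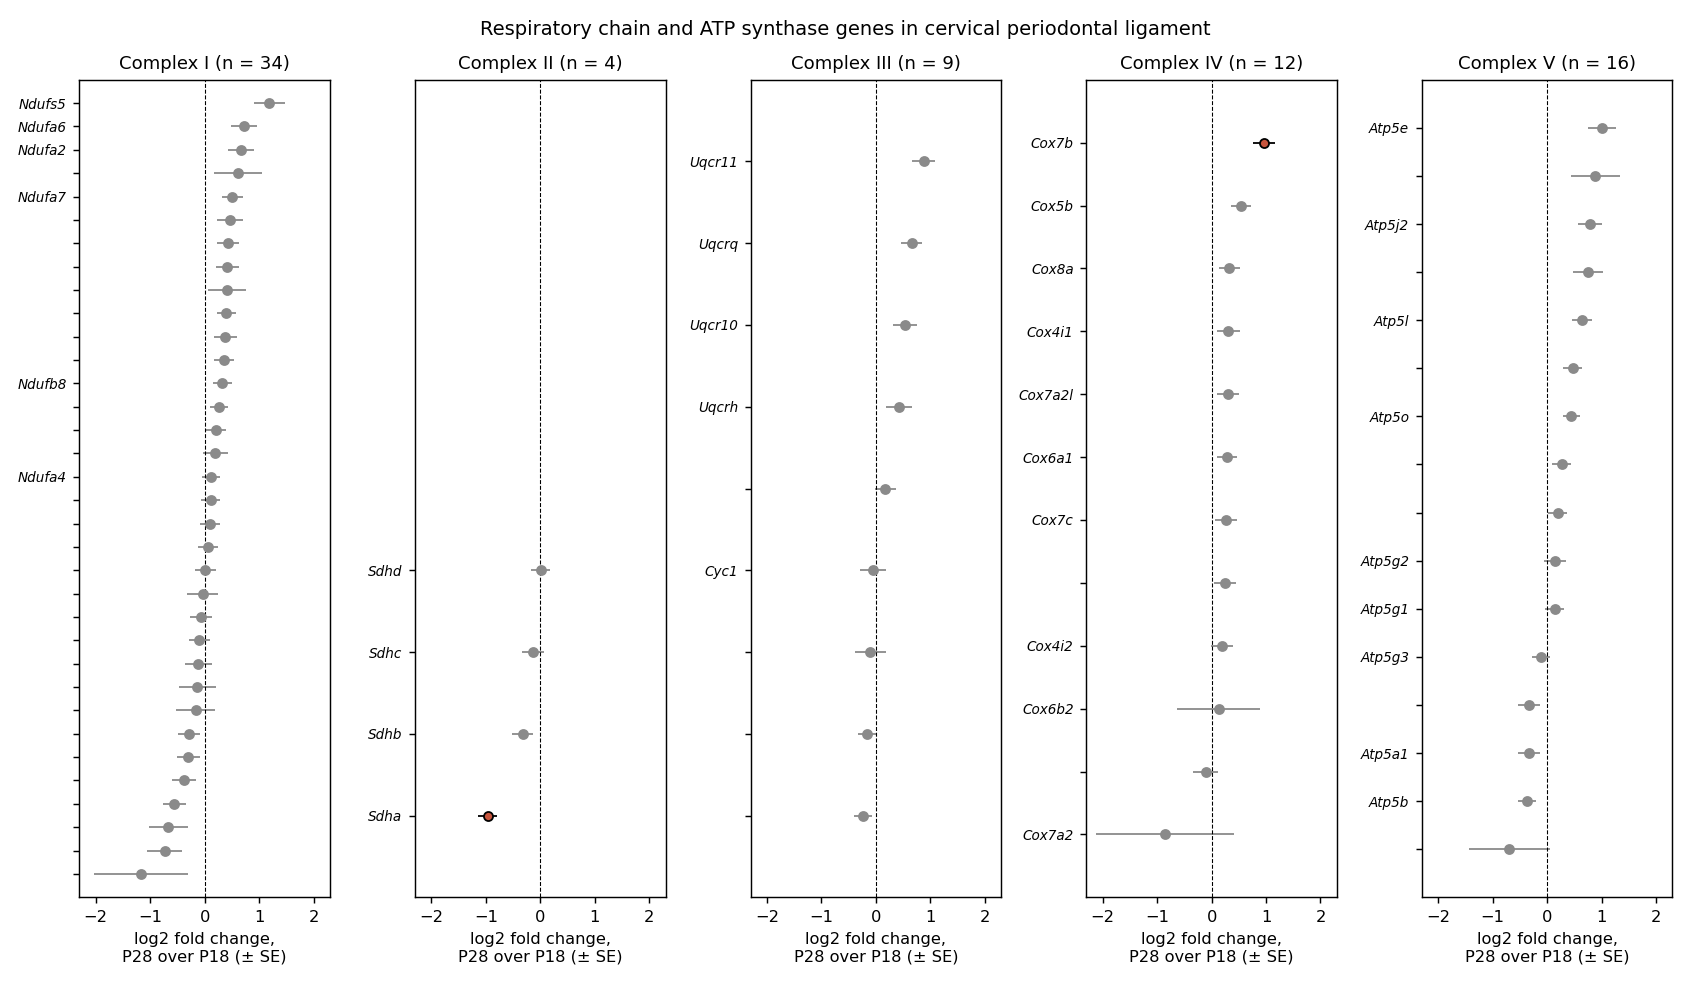
Log2 fold change (P28 over P18) with its SE for each of the 75 members, sorted within complexes I to V; the 34 members named by rule are labelled, and red points mark an edgeR adjusted p under 0.05. Sdha in complex II and Cox7b in complex IV are the called members, and 48 of the 75 points lie above 0.

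Sdha, the flavoprotein that oxidises succinate and so belongs to both the respiratory chain and the tricarboxylic acid cycle, fell at P28. Its level was 181, 225, 203 and 205 CPM in the P18 animals, replicate 1 first, and 101, 105, 98.3 and 113 CPM in the P28 animals. The ages did not overlap, and the P28 libraries lay close together. The log2 fold change was -0.97 ± 0.18 (SE; edgeR adjusted p = 0.0314), from 203 ± 18.1 to 104 ± 6.34 CPM (SD, n = 4 per age). With 1 library left out the log2 fold change stayed between -1.02 and -0.93. The call was kept without P28 replicate 2 or 4, and was lost without any other single library, with adjusted p up to 0.128 (edgeR, without P18 replicate 2).

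The other subunits of complex II did not pass the test. Sdhb, the iron-sulfur subunit that takes the electrons on, had 213, 239.8, 319 and 292 CPM in the P18 animals and 251, 178, 207 and 214 CPM in the P28 animals, which overlap (log2 change -0.32 ± 0.20, adjusted p = 0.494 in edgeR). For the membrane anchors Sdhc and Sdhd, which bind ubiquinone, the log2 change was -0.14 ± 0.20 and 0.01 ± 0.17; that of Sdhd turned negative with upper-quartile scaling. The ratio of Sdha to Sdhb CPM, which is not corrected for transcript length and is compared only between libraries, was 0.847, 0.939, 0.636 and 0.702 at P18 and 0.401, 0.587, 0.474 and 0.528 at P28. That ratio did not overlap between the ages.

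Cox7b, a small subunit of cytochrome c oxidase in the inner membrane, rose at P28. Its level was 164, 142, 145 and 124 CPM in the P18 animals and 287, 281, 348 and 209.9 CPM in the P28 animals. The lowest P28 library, replicate 4, was above the highest P18 library. The log2 fold change was 0.97 ± 0.20 (edgeR adjusted p = 0.0464), from 144 ± 16.2 to 281 ± 56.5 CPM. Leaving out 1 library gave log2 changes of 0.85 to 1.09; Cox7b stayed called without P28 replicate 4 and was not called without any of the other 7 (edgeR adjusted p up to 0.173, without P18 replicate 2). It was not called with upper-quartile scaling (edgeR adjusted p = 0.0541).

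**Figure D2:**
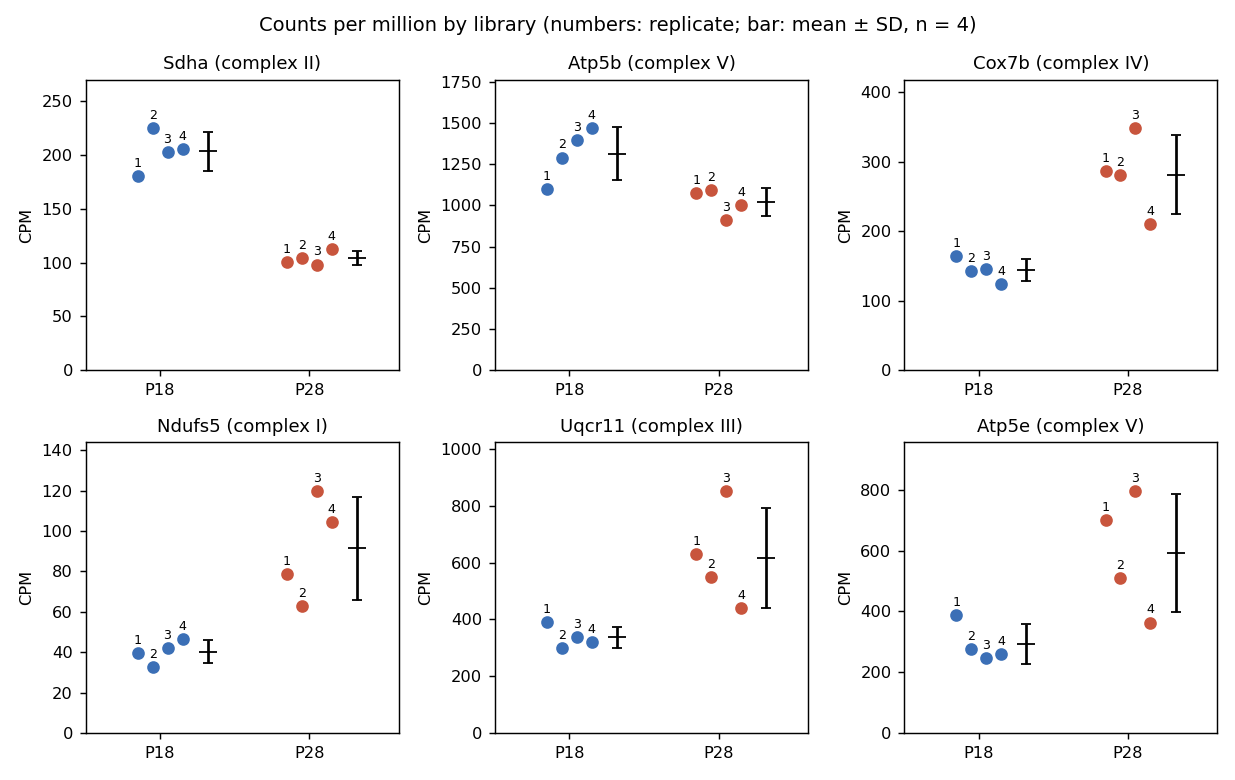
CPM of 6 members in each library (points, numbered by replicate) with the mean and SD over the 4 libraries of an age (black). Sdha and Atp5b lie lower, and Cox7b, Ndufs5 and Uqcr11 higher, at P28 without overlap, while Atp5e overlaps because P28 replicate 4 (363 CPM) lies below P18 replicate 1 (389 CPM).

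The 250 bases before the annotated start of both called genes are shown, with 2 further members that lay higher at P28 without overlap and whose promoters hold letters of factors known to regulate respiratory genes. The sequences are from RefSeq (build GRCr8, matched by symbol for 63 of the 75 members), read 5′ to 3′ on the gene's strand, and end at the base before the start. Capitals mark the letters searched, on either strand: GCGCATGCG (NRF1), CCGGAAG (ETS factors such as GABPA) and AAGATGGCG (YY1).
Sdha (chr1:30764303-30764552, plus strand): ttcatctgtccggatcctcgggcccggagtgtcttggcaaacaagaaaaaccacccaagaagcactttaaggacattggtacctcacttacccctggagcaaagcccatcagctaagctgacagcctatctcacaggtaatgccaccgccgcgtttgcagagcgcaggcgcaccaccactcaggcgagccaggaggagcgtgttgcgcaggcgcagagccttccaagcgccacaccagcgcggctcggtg
Cox7b (chrX:75148786-75149035, plus strand): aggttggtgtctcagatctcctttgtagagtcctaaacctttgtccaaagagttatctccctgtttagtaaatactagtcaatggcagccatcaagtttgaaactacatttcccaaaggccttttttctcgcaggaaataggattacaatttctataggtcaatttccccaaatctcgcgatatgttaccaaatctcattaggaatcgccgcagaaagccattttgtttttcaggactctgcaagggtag
Uqcrq (chr10:38089979-38090228, minus strand): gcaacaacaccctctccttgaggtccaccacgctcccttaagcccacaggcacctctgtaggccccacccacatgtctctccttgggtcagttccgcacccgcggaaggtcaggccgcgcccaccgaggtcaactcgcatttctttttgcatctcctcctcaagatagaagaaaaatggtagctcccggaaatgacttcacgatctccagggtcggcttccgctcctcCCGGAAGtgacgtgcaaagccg
Atp5o (chr11:44657484-44657733, minus strand): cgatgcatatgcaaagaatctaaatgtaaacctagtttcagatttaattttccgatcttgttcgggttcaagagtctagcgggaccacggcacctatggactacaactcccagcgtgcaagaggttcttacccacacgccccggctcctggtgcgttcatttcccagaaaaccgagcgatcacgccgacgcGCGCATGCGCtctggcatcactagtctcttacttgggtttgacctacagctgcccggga
In the full RefSeq windows of 300 bases, which run 50 bases past the start, 6 of the 63 members held the NRF1 letters (9.52%, against 1.66% of 27457 promoters), 18 the ETS letters (28.6%, against 9.22%) and 10 the YY1 letters (15.9%, against 1.93%). At least 1 of the 3 was found in 28 members (44.4%, against 12% of all promoters). Uqcrq and Atp5o were picked for both traits. Ndufs5, Ndufa7, Ndufv1 and Ndufb5 also lay higher at P28 without overlap and held none of the letters. Ndufs1, Sdhb, Uqcrc2 and Atp5a1 had log2 changes below 0 and held the ETS letters. Whether the letters go with the direction of change was not tested. The NRF1 letters are nearly their own reverse complement, and the capitals in Atp5o are 2 overlapping matches of them. For Sdha and Cox7b no match was found in the bases shown, which says only that these letters are not there.

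Apart from Cox7b, the nuclear subunits of complex IV, which surround the mitochondrially encoded catalytic core, did not pass the test. Of the 12, 10 had a log2 fold change above 0, and the median was 0.27. Cox5b, which binds zinc on the matrix side, had 217, 187, 208 and 205 CPM in the P18 animals and 308, 274, 351 and 254 CPM in the P28 animals, without overlap (log2 change 0.54 ± 0.18, adjusted p = 0.173 in edgeR). Its partner Cox5a had a log2 change of -0.11 ± 0.23. Cox6a1, the non-muscle isoform of subunit 6a, had 605 ± 34.5 and 739 ± 148 CPM at P18 and P28 (log2 change 0.29 ± 0.18). Cox7c, a small membrane subunit, had 495 ± 63.7 and 593 ± 132 CPM (log2 change 0.26 ± 0.20).

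Isoforms of complex IV did not pass the test. Cox4i1, the widespread isoform of subunit 4, had 189.8 ± 27.7 and 235 ± 49.1 CPM (log2 change 0.31 ± 0.21). Cox4i2, the isoform known from lung and from the response to low oxygen, had 120 ± 14.7 and 137 ± 20.3 CPM (log2 change 0.19 ± 0.20). The ratio of Cox4i2 to Cox4i1 CPM was 0.643 ± 0.124 at P18 and 0.613 ± 0.217 at P28, and the ages overlapped. Cox8a and Cox7a2l, a factor in the assembly of respiratory supercomplexes, had log2 changes of 0.32 ± 0.19 and 0.30 ± 0.21. Cox6b2, best known from testis, was at 11.9, 13.5, 11 and 13 CPM in the P18 animals and 20.9, 11.7, 19.7 and 1.46 CPM in the P28 animals, lowest in P28 replicate 4 (log2 change 0.13 ± 0.75). Cox7a2 was counted at only 1.39 ± 0.716 and 0.759 ± 0.637 CPM (log2 change -0.85 ± 1.26). How reads shared with processed copies of such short genes were counted is not stated.

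Muscle isoforms of complex IV were seen almost only in single libraries. Cox6a2, the heart and skeletal muscle isoform of subunit 6a, had 218 counts in P28 replicate 1, 54 in P18 replicate 2, 2 each in P18 replicate 4 and P28 replicate 2, and 0 in the remaining 4. Cox8b, another muscle isoform, had 28 counts in P28 replicate 1 and 0 in the other 7 libraries. Neither reached the minimum of 10 counts in 4 libraries, and neither was tested. P28 replicate 1 also had the highest summed level of the skeletal muscle markers (10 of 12 with a count), 66.5 CPM against 3.02 to 11.0 CPM in the other libraries. The troponin gene Tnnc2 was at 26.8 CPM there and at 0 to 0.208 CPM elsewhere, and the creatine kinase gene Ckm was at 3.00 CPM there; the part of these markers was not tested.

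Complex I, the NADH dehydrogenase, had no call by edgeR in either direction. Of its 34 members 21 had a log2 fold change above 0 and 13 below, with a median of 0.12. In edgeR 7 had an unadjusted p under 0.05. Of these, 5 were higher (14.7%, against 7.45% of all genes tested) and 2 lower (5.88%, against 7.1%). Ndufs5, an accessory subunit on the intermembrane face, had 39.7, 32.6, 41.9 and 46.3 CPM in the P18 animals and 78.9, 62.8, 119.9 and 104 CPM in the P28 animals. Every P28 library was above every P18 library (log2 change 1.19 ± 0.28, adjusted p = 0.0727 in edgeR). It passed without P28 replicate 2 (edgeR adjusted p = 0.0461). The accessory subunits Ndufa6, Ndufa2 and Ndufa7 had log2 changes of 0.72 ± 0.25, 0.66 ± 0.24 and 0.51 ± 0.19. For Ndufa6 and Ndufa2 the ages overlapped, because P28 replicate 4 lay at 175 and 207 CPM and the highest P18 library at 201 and 239 CPM.

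The core subunits of complex I, which carry the flavin, the iron-sulfur clusters and the ubiquinone site, had values on both sides of 0. This grouping by role, and those of complexes III and V that follow, were made from textbook roles after the values were seen. Of the 7 nuclear core subunits, 3 had a log2 fold change above 0 and 4 below. Ndufv1, which binds NADH, had 181, 157, 154 and 198 CPM in the P18 animals and 228, 208, 234 and 242 CPM in the P28 animals, without overlap (log2 change 0.40 ± 0.18, adjusted p = 0.316 in edgeR). Ndufs1, the largest of them, had a log2 change of -0.67 ± 0.36 and Ndufv2 of -0.30 ± 0.21.

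Of the 27 accessory subunits of complex I, 18 were above 0 and 9 below. Ndufa9 and Ndufa10 had the lowest p among those below 0, with log2 changes of -0.56 ± 0.22 and -0.73 ± 0.32 (adjusted p = 0.256 and 0.316 in edgeR). Ndufa10l1, a near-identical copy of Ndufa10 that may share reads with it, had 9.32 ± 3 and 4.15 ± 1.72 CPM (log2 change -1.17 ± 0.86), so both values are uncertain. Ndufab1, the mitochondrial acyl carrier protein, was lower at P28 without overlap (146 ± 9.48 and 112 ± 25.3 CPM, log2 change -0.38 ± 0.22) but did not pass. Ndufb8, of the membrane arm, and Ndufa4 had log2 changes of 0.33 ± 0.18 and 0.12 ± 0.16.

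In complex III the 5 small subunits lay above 0 and the 4 large ones below, and none was called. Uqcr11, a small membrane subunit, had 389, 300.4, 338 and 319 CPM in the P18 animals and 629, 548, 853 and 439 CPM in the P28 animals, without overlap (log2 change 0.88 ± 0.22, adjusted p = 0.0842 in edgeR). It passed without P28 replicate 4 (edgeR adjusted p = 0.0341). Uqcrq, another of the small subunits, had 364, 319, 322 and 331 CPM in the P18 animals and 628, 431, 636 and 409 CPM in the P28 animals. Its values did not overlap between the ages either (log2 change 0.66 ± 0.20, adjusted p = 0.14 in edgeR). Uqcr10, Uqcrh and Uqcrb had log2 changes of 0.53 ± 0.22, 0.43 ± 0.24 and 0.17 ± 0.19.

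Among the large subunits of complex III, the core proteins Uqcrc1 and Uqcrc2 had log2 changes of -0.24 ± 0.17 and -0.11 ± 0.29. The catalytic subunits Uqcrfs1, the Rieske iron-sulfur protein, and Cyc1, cytochrome c1, had log2 changes of -0.16 ± 0.18 and -0.06 ± 0.24. The sign for Cyc1 changed without P18 replicate 4 or without P28 replicate 3, and that for Uqcrc2 without P18 replicate 4 or P28 replicate 4 (-0.33 to 0.10 over the 8 single libraries left out). The 5 small subunits summed to 1273 ± 147 CPM before and 1956 ± 442 CPM after contact (P18 and P28), and the 2 core proteins to 449 ± 45.1 and 389 ± 62.2 CPM.

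None of the 16 members of complex V, the ATP synthase, was called by edgeR. An unadjusted p under 0.05 in edgeR was found for 7 of them. Of these, 6 were higher (37.5%, against 7.45% of all genes tested) and 1 lower (6.25%, against 7.1%). In the catalytic head and central stalk 2 of 5 lay above 0 and 3 below, and differences between positions in the enzyme were not tested. In the head, Atp5b, the beta subunit that carries the active sites, had 1097, 1291, 1395 and 1469.5 CPM in the P18 animals and 1076, 1093, 909 and 1001 CPM in the P28 animals. All P28 libraries were below all P18 libraries, P28 replicate 2 and P18 replicate 1 by little (log2 change -0.37 ± 0.17, adjusted p = 0.339 in edgeR). Atp5a1 and Atp5c1, the alpha and gamma subunits, had log2 changes of -0.34 ± 0.20 and -0.34 ± 0.20, with overlap. Atp5d, the delta subunit of the central stalk, had 342 ± 45.2 and 391 ± 47.1 CPM, also with overlap (log2 change 0.19 ± 0.18). Atp5e, the small epsilon subunit of the central stalk, had 389, 277, 248 and 259.5 CPM in the P18 animals and 699, 509.7, 797 and 363 CPM in the P28 animals (log2 change 1.01 ± 0.26, adjusted p = 0.0894 in edgeR). It passed without P28 replicate 4 (edgeR adjusted p = 0.0288), the lowest P28 library.

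The peripheral stalk and the small membrane subunits of ATP synthase had values above 0. Of the stalk, which holds the head still, Atp5o, Atp5j and Atp5h had log2 changes of 0.44 ± 0.16, 0.47 ± 0.18 and 0.27 ± 0.17, and none overlapped between the ages. Atp5j2, Atp5i and Atp5l, small membrane subunits, had log2 changes of 0.79 ± 0.22, 0.75 ± 0.27 and 0.64 ± 0.18 (adjusted p = 0.108, 0.222 and 0.118 in edgeR). The level of Atp5l was 404, 346, 371 and 406 CPM in the P18 animals and 580.2, 569, 753 and 485 CPM in the P28 animals. The ring of c subunits that turns in the membrane is encoded by Atp5g1, Atp5g2 and Atp5g3, which give the same mature protein; their log2 changes were 0.14 ± 0.18, 0.15 ± 0.20 and -0.12 ± 0.17. The ratio of Atp5g1 to Atp5g3 CPM was 0.414 ± 0.0652 at P18 and 0.492 ± 0.0836 at P28, with overlap. Atp5s and Atp5sl, which match the symbol rule but are named Dmac2l and Dmac2 in RefSeq, had log2 changes of -0.70 ± 0.74 and 0.89 ± 0.44.

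Within libraries, some small subunits differed from large ones of the same complex. The ratio of Atp5e to Atp5b CPM was 0.355, 0.214, 0.178 and 0.177 in the P18 animals and 0.65, 0.467, 0.876 and 0.363 in the P28 animals. The ratio of Uqcr11 to Uqcrc1 CPM was 1.37, 0.914, 0.958 and 0.954 in the P18 animals and 2.32, 1.81, 3.02 and 1.81 in the P28 animals. Neither ratio overlapped between the ages, whereas that of Atp5e to Atp5a1 did; the pairs were chosen after their values were seen and were not tested.

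In CPM, the higher levels at P28 sat mostly in 2 of the 4 libraries. P28 replicate 3 held the highest of the 8 values for 38 members (50.7%, against 17.4% of all genes tested), and P28 replicates 1 and 3 were the upper 2 of the P28 libraries for 39 (52%, against 18.7%). Summed over all 75 members, the level was 17553, 16413, 17126 and 16953 CPM in the P18 animals and 20406, 18085, 22499 and 17164 CPM in the P28 animals. P28 replicate 4 lay within the P18 range and P28 replicate 2 above it. These sums depend on the TMM scaling, whose factor was 0.889 in P28 replicate 3 and 1.06 in P28 replicate 2. As an unscaled share of counts, the members took 1.952%, 1.906%, 1.995% and 1.571% in the P28 animals. The P18 animals had 1.788%, 1.71%, 1.851% and 1.779%. By share, P28 replicates 1, 2 and 3 lay above all P18 libraries and P28 replicate 4 below them. Complex IV summed to 3685, 3057, 4051 and 2729 CPM in the P28 animals, against 2556 to 3031 CPM at P18. Complex II lay below its P18 range, with 906, 822, 856 and 823 CPM in the P28 animals against 921 to 1226 CPM at P18.

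Osteoclast markers were also high in P28 replicates 1 and 3. The sum of the 6 markers with a count (Acp5, Ctsk, Mmp9, Atp6v0d2, Oscar and Calcr, of 8 listed) was 5512 and 7814 CPM in P28 replicates 1 and 3, 1024 and 2057 CPM in replicates 2 and 4, and 1451 to 1710 CPM at P18. Calcr was at or near 0 in all libraries and Oscar reached 6.58 CPM at most. Acp5 was the only osteoclast marker called (log2 change 3.67, adjusted p = 0.0494 in edgeR). The ligament marker sum was also highest among P28 libraries in replicates 1 and 3 (159600 and 176800 CPM, against 128300 and 137400 CPM). So were the sums of enamel organ markers and neutrophil markers. Of the gene lists given below, the same held for cytosolic and mitochondrial ribosomal protein genes, complex IV assembly factors, and complex V factors and inhibitor. The other marker lists and the other gene lists given below did not show this. Without P28 replicates 1 and 3, an alternative chosen after seeing the data, the members' median log2 fold change was 0.04, with 41 of 75 above 0, and no member was called by edgeR among 7 calls over all genes. Most members were higher in these libraries than in the other P28 libraries, so a lower median was bound to follow. Only replicates 2 and 4 remain at P28, which also limits calls. This alternative cannot tell osteoclasts from anything else that sets the libraries apart. The log2 changes of Sdha and Cox7b were then -0.90 and 0.78 (adjusted p = 0.252 and 0.33 in edgeR), and those of Atp5e and Uqcr11 0.58 and 0.56. The part of the osteoclast or other markers in the members' values was not tested.

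**Figure D3:**
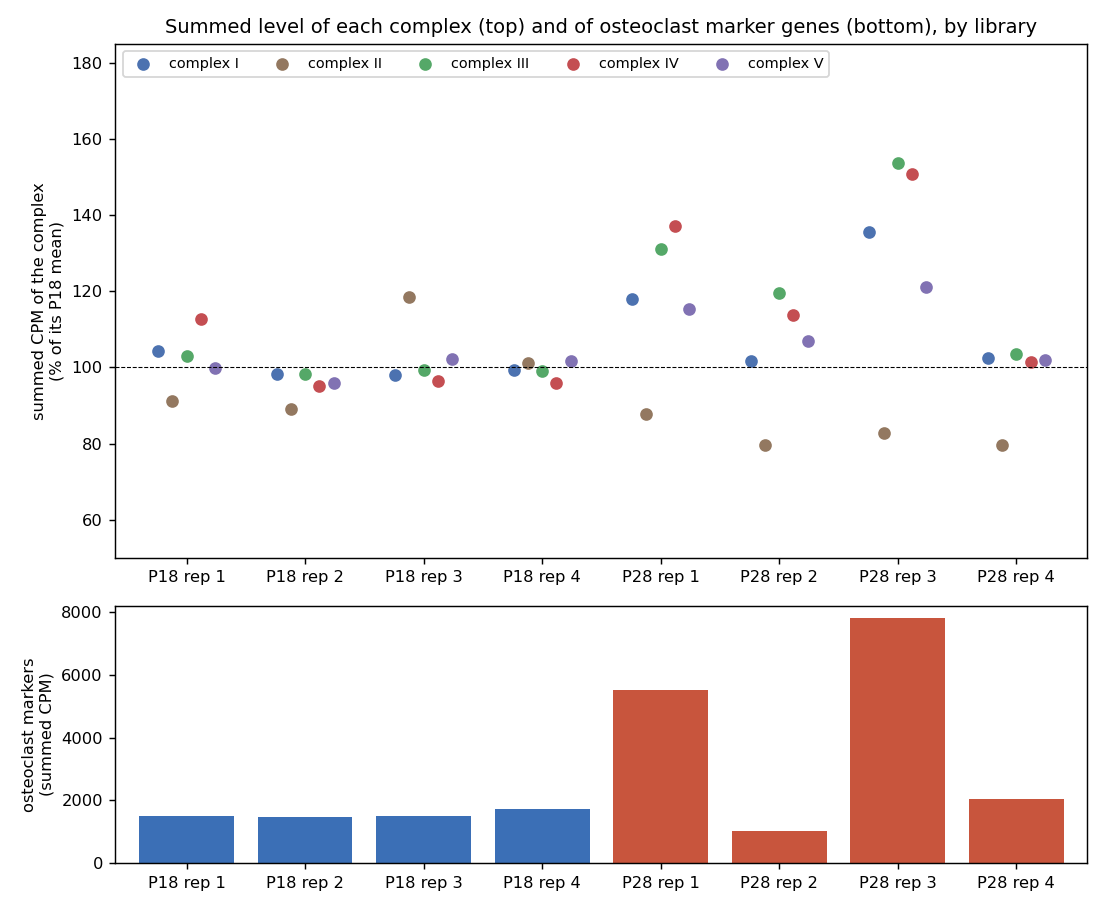
Summed CPM of the members of each complex in each library as a percentage of the mean of the 4 P18 libraries (top), and summed CPM of osteoclast markers (bottom). Complexes I, III, IV and V are highest in P28 replicates 1 and 3, where the markers sum to 5512 and 7814 CPM, while complex II lies below its P18 mean in all 4 P28 libraries.

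The direction of a member's change went with the length of its gene. Gene span, introns included, was taken from RefSeq for all 75 members and 10342 of the 10472 genes tested; transcript length was not used here. Of the 55 members with a span up to 13337 bases, the border of the shortest tercile of all genes, 44 had a log2 fold change above 0, with a median of 0.31. Of the 20 longer members 16 were below 0, with a median of -0.29. Over all genes tested the same split gave 59.2% above 0 among the shorter (median 0.15) and 45.7% among the longer (median -0.08). Spearman's rho of span and log2 fold change was -0.526 across the 75 members and -0.118 across all genes, as a description across genes of the same 8 libraries. Atp5b and Atp5a1 are among the shorter genes with a value below 0, and Ndufb5 is a longer gene that was higher at P28 without overlap. The part of gene or transcript length in the members' values was not tested.

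**Figure D4:**
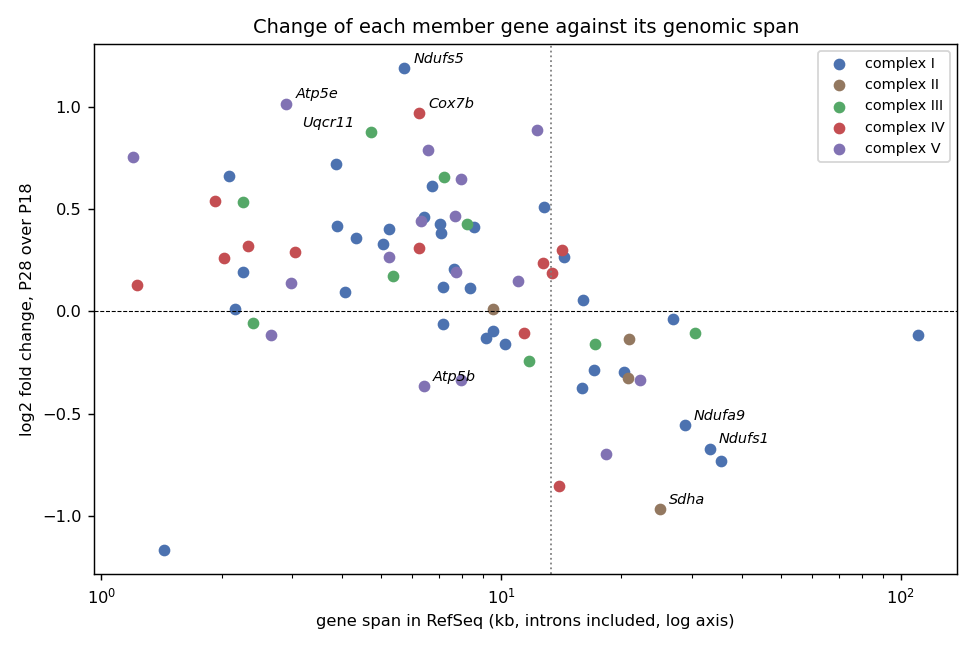
Log2 fold change (P28 over P18) of the 75 members against gene span in kilobases (log axis), coloured by complex; the dotted line at 13337 bases bounds the shortest tercile of all genes tested. To its left 44 of 55 members lie above 0, and to its right 16 of 20 lie below.

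Other genes of mitochondrial respiration held no call by edgeR. In the tricarboxylic acid cycle, which feeds the chain with NADH and succinate, 10 of 12 tested genes had a log2 fold change below 0 (median -0.37). An unadjusted p under 0.05 in edgeR was found for 3, all lower (25%, against 7.1% of all genes tested). Cs, the citrate synthase that opens the cycle, had 65.2, 63.9, 78.2 and 63.7 CPM in the P18 animals and 38.4, 53.5, 21.6 and 33.9 CPM in the P28 animals, without overlap (log2 change -0.88 ± 0.32, adjusted p = 0.216 in edgeR). Ogdh, part of the oxoglutarate dehydrogenase complex, and Idh3a, an isocitrate dehydrogenase subunit, had log2 changes of -1.38 ± 0.57 and -0.90 ± 0.36. Of 6 mitochondrial carriers and porins, 4 were below 0. In edgeR 1 had an unadjusted p under 0.05 and was lower (16.7%, against 7.1%). The porin Vdac3 had 313 ± 20.7 and 213 ± 39.2 CPM (log2 change -0.56 ± 0.19, adjusted p = 0.179 in edgeR).

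Assembly factors had values on both sides of 0. Those of complex I had 5 of 12 tested genes above 0 (median -0.07), those of complexes II and III 3 of 7 (median -0.13), those of complex IV 9 of 15 (median 0.20), and the complex V factors and inhibitor 3 of 4 (median 0.23). Ndufaf1, an early assembly factor of complex I, had 4.88, 15.3, 12.9 and 17.8 CPM in the P18 animals and 2.64, 0.313, 0.979 and 1.25 CPM in the P28 animals, without overlap (log2 change -3.28 ± 1.00, adjusted p = 0.145 in edgeR). Its lowest value, in P28 replicate 2, stands for 3 counts, so the size of this change is uncertain. Cox17, the copper chaperone of complex IV, had 41.6, 41.8, 38.6 and 40.9 CPM in the P18 animals and 91.8, 48.8, 114 and 57.4 CPM in the P28 animals (log2 change 0.94 ± 0.31, adjusted p = 0.175 in edgeR), highest in P28 replicates 1 and 3. Atpif1, which inhibits ATP synthase when it runs in reverse, had a log2 change of 0.53 ± 0.24. Of 16 genes of the mobile electron carriers and ubiquinone synthesis 7 were above 0, and Coq10b and Coq9 had log2 changes of -1.08 ± 0.39 and 0.58 ± 0.25. Of 14 regulators of mitochondrial gene expression 8 were above 0. Tfb1m, which methylates mitochondrial ribosomal RNA, had a log2 change of 0.94 ± 0.42. Nrf1 and Pprc1 had log2 changes of -0.72 ± 0.63 and -0.54 ± 0.50.

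Ribosomal protein genes are given for comparison. Of 66 tested mitochondrial ribosomal protein genes 43 were above 0, with a median of 0.15, 0 called by edgeR and 7 at an unadjusted p under 0.05. Of these 7, 6 were higher (9.09%, against 7.45% of all genes tested) and 1 lower (1.52%, against 7.1%). Of 79 tested cytosolic ribosomal protein genes 72 were above 0, with a median of 0.47 and 0 called by edgeR. An unadjusted p under 0.05 in edgeR was found for 20, all higher (25.3%, against 7.45% of all genes tested). The cytosolic genes summed to 19514, 18802, 22974 and 11747 CPM in the P28 animals and 16557, 13276, 11971 and 11881 CPM in the P18 animals. P28 replicate 4 was the lowest of all libraries there, and it was also the lowest P28 library for the summed members. Whether any of these lists differs from the respiratory members was not tested.

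The 6 symbols below the count minimum were Cox6a2, Cox8b, Ndufa1, Atp5f1, Cox8c and Cox6c-ps1. Ndufa1, an accessory subunit of complex I, had 12 counts over all 8 libraries. Atp5f1, the b subunit of the peripheral stalk, Cox8c, best known from testis, and the pseudogene Cox6c-ps1 had 0 counts in every library, which allows up to 0.108 CPM in the deepest and 0.624 CPM in the shallowest (3 counts; counting error only). The values at or near 0 of Ndufa1 and Atp5f1 are given as counted and were not read as levels in the tissue, since the treatment of shared or overlapping reads is not stated.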

How the data were processed

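Raw counts per gene symbol, as deposited, were used for the 8 cervical libraries; 40 columns of other samples were not used, nor was a table of scaled values. The submitters' processing notes name STAR (2.5.3a), HTSeq (0.9.1), edgeR (3.16.5) and rn6, without roles; annotation and strand setting are not stated there.

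Counts were tested with edgeR 4.0.16 (glmQLFit, glmQLFTest, 2-sided) in R 4.3.3, using TMM factors, a model of age alone and filterByExpr (minimum count 10). Adjusted p-values are Benjamini-Hochberg over all 10472 genes tested (threshold 0.05). The SE is the size of the log2 fold change over the root of F. The fit was tested on simulated data. Alternatives covered scaling (DESeq2 size factors, upper quartile), tool (DESeq2 1.42.0 Wald test, limma 3.58.1 voom with quality weights), 2 other filters, Ndufa4 counted in complex IV, a replicate block and leaving out libraries.

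Named members were those called, in each complex the 4 with the lowest p and the 2 with the highest mean, complex II, Cyc1 and isoform families, and from each other list up to 3 with the lowest p; further members are named as examples chosen after their values were seen. Members and lists were chosen with earlier results of these data known. Cox6b1 and Cox7a1, also on that list, were not analysed here, and 1 member's own value is not reported here. Spans and promoters are RefSeq GRCr8, not the build of the counts. Replicates are separate animals, per the labels.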

Additional observations from a re-analysis of the deposited data

Results flagged for a closer look

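Among the 34 members named by rule and the sums over each complex and over all members, 80 groups of 4 libraries were tested for a library far from the other 3 of its age (Dixon's test), and 4 held one; chance gives about 1 in 20. Ndufa7 lay at 265.9 CPM in P28 replicate 3, with the next library at 194 CPM. Ndufb8 lay at 394 CPM in P18 replicate 2, with the others from 455 to 459.6 CPM. Cyc1 lay at 163.9 CPM in P18 replicate 1, with the next library at 259.3 CPM. The summed level of complex IV was 3031 CPM in P18 replicate 1, with the others from 2556 to 2591 CPM.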

How the results depend on the processing

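Calls depended on the tool and on single libraries. Against 98 genes and 2 members called by edgeR, both members stayed called with DESeq2 size factors, with no filter, and with a minimum of 10 counts in 4 libraries. Upper-quartile scaling called 1 member (Sdha), voom with quality weights 307 genes and 5 members, and the DESeq2 Wald test 552 genes and 8 members; the last 2 include Sdha and Cox7b. Leaving out 1 library gave 9 to 215 genes and 0 to 4 members. Without P28 replicates 1 and 3, edgeR called 7 genes and 0 members. The median log2 fold change was then 0.043 over all members, -0.016 in complex I and 0.045 in complex IV. It was -0.338 in complex II, 0.212 in complex III and 0.129 in complex V, against -0.23, 0.173 and 0.228 in the main fit. Most members were higher in P28 replicates 1 and 3 than in the other P28 libraries, so a lower median over all members was bound to follow.

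Replicate numbers did not pair the samples: deviations of same-numbered libraries correlated at -0.02 to 0.002. With the replicate block, edgeR called 26 genes and 0 members.

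Some members near 0 changed sign. The log2 fold change of Cox6b2 was -0.257 with the replicate block, -0.163 to 0.5 leaving out 1 library (-0.163 and -0.115 without P28 replicate 1 or 3), and -0.892 without both. That of Cyc1 was -0.206 to 0.084 leaving out 1 library (0.009 without P18 replicate 4, 0.084 without P28 replicate 3) and 0.183 without P28 replicates 1 and 3. That of Sdhd was -0.017 with upper-quartile scaling and -0.061 to 0.095 leaving out 1 library (-0.061, -0.016 and -0.008 without P18 replicate 2, P18 replicate 4 and P28 replicate 4). Without P28 replicates 1 and 3, Atp5g2 had -0.096 and Cox7c -0.021. Of 544 comparisons of the 34 named members with alternatives, 501 kept direction and side of the threshold. Only Sdha and Cox7b of these members were called in the main fit, so for the rest keeping the side meant staying uncalled. Sdha stayed called in 2 and Cox7b in 1 of the 8 fits without 1 library. In the 7 alternatives of scaling, tool, filter or block, they stayed called in 6 and 5. Depth limits members of few counts most in P28 replicate 4. The cause was not tested for any of these changes.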
